A study of Homo sapiens with 6 samples.

Results

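ZNF503 and ZNF703 are a pair of paralogous human genes, and the SMAD2/3 binding around them was described in 2 triple-negative breast cancer cell lines treated with TGFβ3. The members were chosen by position in the deposited peak lists, on the hg19 build. A peak was taken when its midpoint lay on chromosome 10 from 77000000 to 77600000, with ZNF503 near 77160 kb, or on chromosome 8 from 37000000 to 37700000, with ZNF703 near 37553 kb. This gave 68 of the 20600 peaks of the series, 27 in the ZNF503 window and 41 in the ZNF703 window. These places were picked because peaks were seen there, so the number of peaks, their scores and their ranks are given as a description, and no test was made of them.

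The assay was ChIP-seq (chromatin immunoprecipitation with sequencing), in which DNA bound to a protein is pulled down with an antibody, here one that recognises both SMAD2 and SMAD3. The 4 libraries were Hs578T cells with TGFβ3 for 1.5 h, Hs578T cells with TGFβ3 for 16 h, BT549 cells with TGFβ3 for 1.5 h and BT549 cells with TGFβ3 for 16 h. Both are established lines grown with serum and insulin, Hs578T in DMEM and BT549 in RPMI-1640. There is 1 library per line and time, so no value below has a replicate error. All 4 libraries are of stimulated cells, and the 2 samples of input DNA from untreated cells, 1 per line, were not analysed here, so binding before TGFβ3 cannot be read from these lists.

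SMAD2 and SMAD3 carry the TGFβ signal. The activated receptor phosphorylates them, and they then join SMAD4, enter the nucleus and bind DNA beside partner factors. ZNF503 and ZNF703 belong to the NET family of zinc finger proteins, named after the Drosophila genes noc and elB and the worm gene tlp-1, which act mainly as transcriptional repressors. ZNF703 lies in a segment of chromosome 8 that is amplified in part of the luminal B breast cancers, where it is an oncogene. ZNF503 is known as a developmental regulator of the striatum and limb and, in breast cells, as a repressor of GATA3, a transcription factor of the luminal lineage.

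The reference table, on GRCh38.p14, was used for names and order only. In it the protein-coding neighbours of ZNF503 are COMTD1 on the side of lower coordinates and LRMDA on the other. The non-coding genes ZNF503-AS1 and ZNF503-AS2 lie on the strand opposite to that of ZNF503. The protein-coding neighbours of ZNF703 are KCNU1, which encodes a potassium channel of sperm, and ERLIN2, which encodes an endoplasmic reticulum membrane protein. An hg19 annotation was not used here, so peaks are placed by their distance from the position given above for each gene. That position is rounded to 1 kb or more, so distances of a few kb are approximate.

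Promoter sequence is shown for the end of ZNF503 from which ZNF503 and ZNF503-AS2 are transcribed in opposite directions, because the densest binding of the ZNF503 window was found within 10 kb of the gene. The sequences come from RefSeq on GRCh38.p14 and run from 250 bases before to 50 bases after a transcription start. That of ZNF503 is chr10:75401867-75402166 on the minus strand, and that of ZNF503-AS2 is chr10:75401278-75401577 on the plus strand. Capitals mark the motifs searched on both strands, which were CAGAC, the core of the SMAD binding element, GGCGC, a GC-rich SMAD motif, and TGACTCA, the AP-1 motif.
ZNF503: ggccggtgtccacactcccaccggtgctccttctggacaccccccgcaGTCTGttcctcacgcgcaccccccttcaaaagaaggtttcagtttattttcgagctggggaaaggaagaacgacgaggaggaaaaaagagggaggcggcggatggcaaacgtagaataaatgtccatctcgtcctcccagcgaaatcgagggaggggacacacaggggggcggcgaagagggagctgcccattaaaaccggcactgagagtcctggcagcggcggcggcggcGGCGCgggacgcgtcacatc
ZNF503-AS2: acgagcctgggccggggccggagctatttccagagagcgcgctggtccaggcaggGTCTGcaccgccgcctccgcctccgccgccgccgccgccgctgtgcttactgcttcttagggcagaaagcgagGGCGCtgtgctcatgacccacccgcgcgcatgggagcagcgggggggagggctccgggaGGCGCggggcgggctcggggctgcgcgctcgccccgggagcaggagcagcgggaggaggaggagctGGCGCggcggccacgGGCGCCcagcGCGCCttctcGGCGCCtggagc

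The table gives 2 starts for ZNF503 and 6 for ZNF503-AS2, and the sequences shown are of 1 start each. The ZNF503 sequence shown held 1 CAGAC match and 1 GGCGC match, and the window of its other start held 0 and 2. The ZNF503-AS2 sequence shown held 1 and 8, where a GGCGCC is counted on each strand. It had the most GGCGC matches of the 6, which ranged from 0 to 8, with 0 or 1 CAGAC match each. None of these windows held TGACTCA. Of all 35116 promoters of the table, 45.3% held CAGAC, 48.6% held GGCGC and 4.95% held TGACTCA, so both SMAD motifs are common in windows of this length. The GC content of the sequences shown was 61.3% for ZNF503 and 76.7% for ZNF503-AS2, against a median of 58.7%. Which hg19 peak, if any, covers these bases was not determined.

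The Hs578T lists were short, with 1373 peaks at 1.5 h and 1849 at 16 h, and the BT549 lists had 9225 and 8153. The score of a peak is the authors' own peak-caller value, and rank 1 is the highest score of a list. The depth behind each list is unknown. A score or rank of one list was therefore not subtracted from that of another, and the ranks of lists of different length are given side by side without reading a change from them.

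Both windows were dense with SMAD2/3 peaks in Hs578T and held fewer in BT549. The ZNF503 window held 8 Hs578T peaks at 1.5 h and 14 at 16 h, and the ZNF703 window held 15 and 23. In BT549 the ZNF503 window held 4 peaks at 1.5 h and 1 at 16 h, and the ZNF703 window held 1 and 2, although the BT549 lists are the longer ones. The BT549 counts were not low for their lists. In windows of the same length over the rest of the genome, a BT549 list had a median of 1 peak, with a mean of 1.81 and 1.6 at the 600 kb of ZNF503 and of 2.11 and 1.87 at the 700 kb of ZNF703. As many as the 4 peaks of ZNF503 at 1.5 h were found in 17.8% of these windows. Together the 2 windows held 10 of the 100 highest-scoring Hs578T peaks at 1.5 h and 11 of those at 16 h, and none of the 100 highest-scoring BT549 peaks at either time. Of all peaks they held 23 of 1373 and 37 of 1849 in Hs578T, and 5 of 9225 and 3 of 8153 in BT549. With so few BT549 peaks, and 100 ranks being a smaller part of a longer list, their absence from the first 100 says little.

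**Figure D1:**
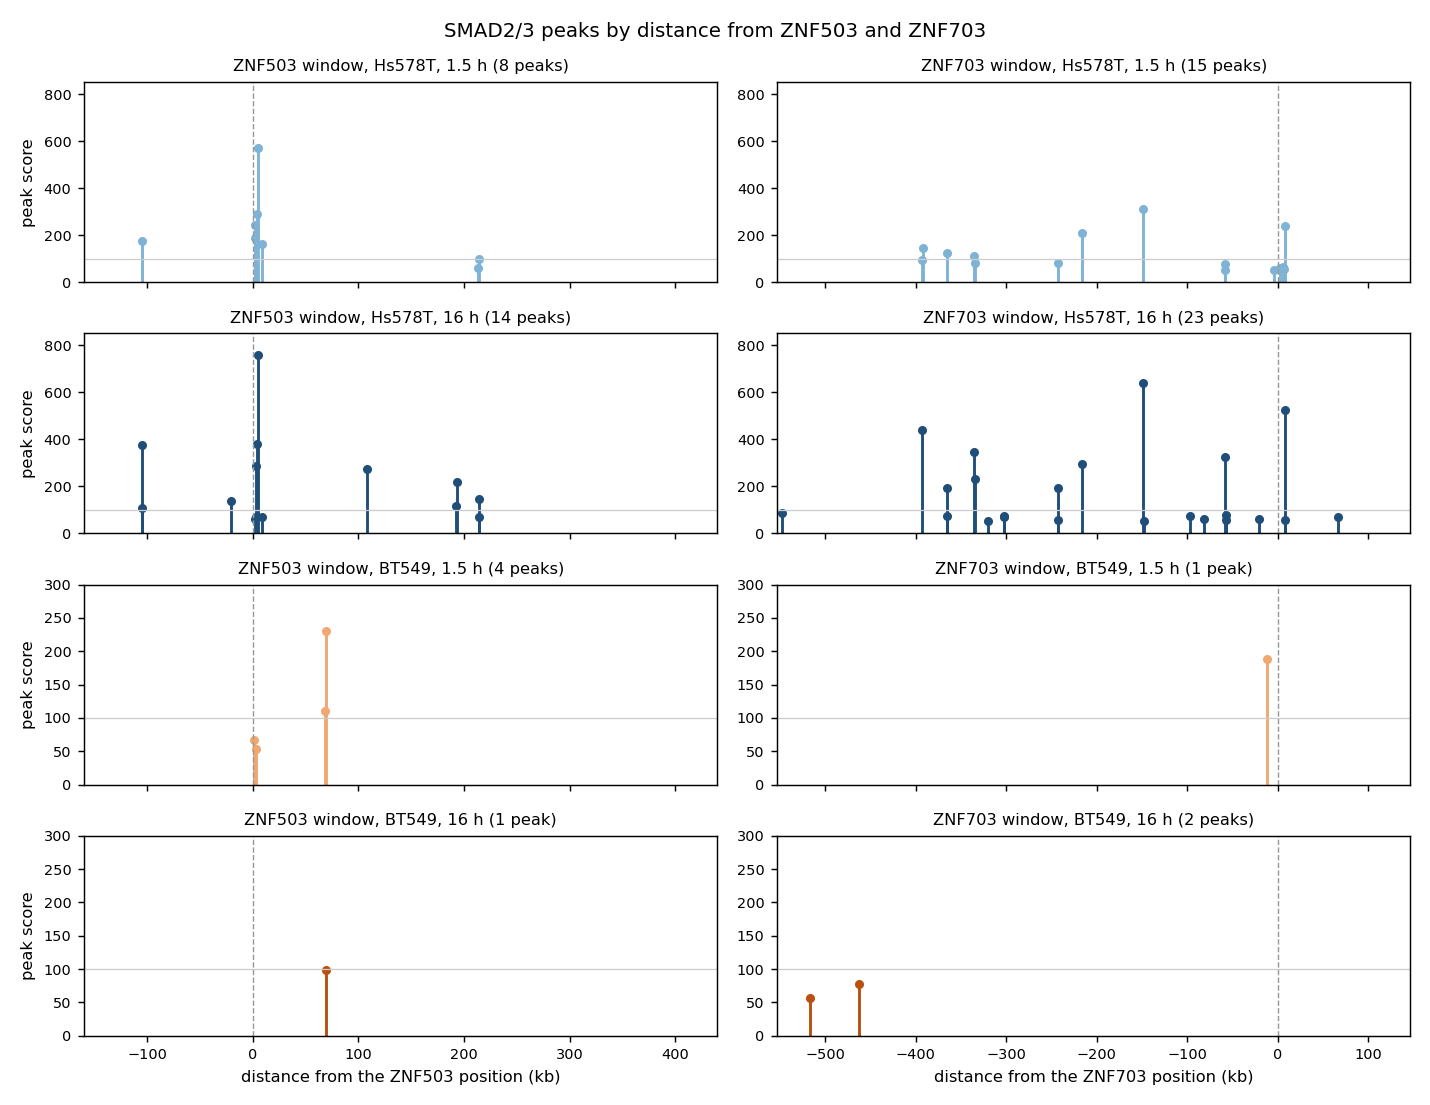
Score of every SMAD2/3 peak of both windows against its distance in kb from the gene position, 1 panel per library; each stem is 1 peak, the dashed line is the gene position and the grey line a score of 100. The score axes of Hs578T and BT549 differ. Of the 14 ZNF503 peaks of Hs578T at 16 h, 6 stand beside the gene and 8 farther out, while 20 of the 23 ZNF703 peaks lie at lower coordinates than the gene. Most of the ZNF703 window lies on that side too.

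At ZNF503 in Hs578T, a run of peaks lay on the side of higher coordinates, 1.6 to 8.4 kb from the gene position. In the early list it held most of the window's peaks, 5 against 3 farther out. In the late list it held fewer than lay farther out, 6 against 8, and covered 2686 bp against 2969 bp. Among late peaks scoring at least 100, 3 were in the run and 7 were outside it. At 1.5 h this run had 5 peaks between 77161415 and 77168434, a length of 7020 bp. At 16 h it had 6 peaks between 77161569 and 77168508, or 6940 bp. A run is here a set of peaks with no gap over 5 kb between neighbours. Only 3 of the 1248 runs of the 1.5 h list besides this one had as many peaks, and 5 of the 1584 runs at 16 h.

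The leading site of the run, from 77164565 to 77165470, was also the highest-scoring ZNF503 peak of both Hs578T lists. At 1.5 h it scored 572, was 758 bp wide and ranked 6. At 16 h it scored 757, was 906 bp wide and ranked 9. No BT549 peak lay on it at either time.

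On its lower side the site from 77163388 to 77163858 scored 288 at 1.5 h, with rank 22, and 380 at 16 h, with rank 50. The site from 77162061 to 77162757 scored 242 at 1.5 h, with rank 34, and 288 at 16 h, with rank 84. These 3 sites were thus in the first 100 ranks of both Hs578T lists. A further peak from 77163056 to 77163311 was listed at 16 h only, with a score of 68.5 and rank 672.

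The 2 outer sites of the run had lower places in the 16 h list than in the 1.5 h list relative to the other ZNF503 peaks. The site from 77161252 to 77161876, the nearest to the gene position, scored 189 at 1.5 h, with rank 51, and 62.0 at 16 h, with rank 868, the lowest of the window in that list. The site at the far end, from 77168139 to 77168508, scored 162 with rank 68 and 69.9 with rank 635. At 1.5 h both outscored the peak pair 214 kb away, and at 16 h both scored below each peak of the pair there.

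**Figure D2:**
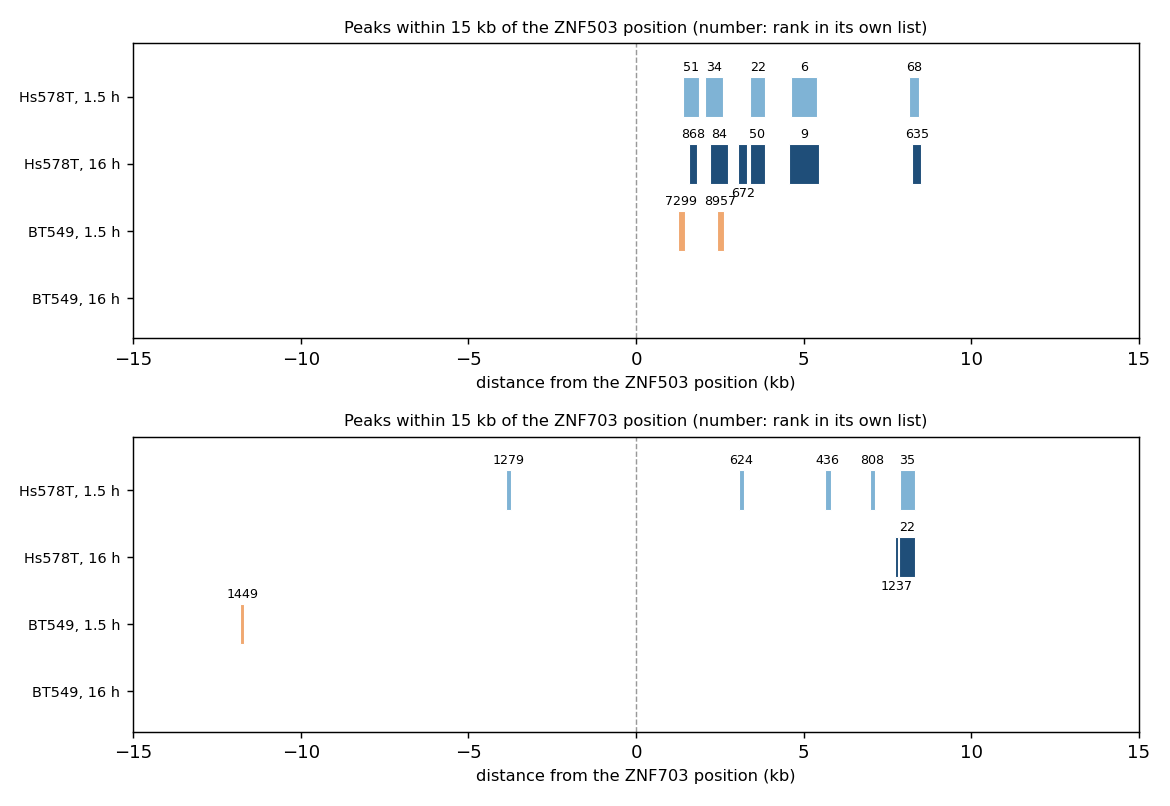
Peaks within 15 kb of each gene position, drawn to scale along the x axis (distance in kb) with 1 row per library; the number at each bar is the peak's rank in its own list. Hs578T has 5 and 6 peaks beside ZNF503, with ranks 6 and 9 at the leading site, and BT549 has 2 peaks there at 1.5 h, with ranks 7299 and 8957.

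Farther from ZNF503, Hs578T had 3 peaks at 1.5 h and 8 at 16 h. The site from 77054550 to 77054953, 105 kb away on the side of lower coordinates, was listed at both times, with a score of 176 and rank 58 at 1.5 h and 377 and rank 52 at 16 h. On the other side, a pair of peaks at each time lay between 77373468 and 77374224, with scores of 63.0 and 101 at 1.5 h and 147 and 71.5 at 16 h. These 2 places held all of the distant binding at 1.5 h.

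The distant peaks listed at 16 h only were of middle to high score. The site from 77267998 to 77268603, 108 kb from the gene position, scored 275 and ranked 96. Neighbouring peaks from 77352722 to 77352969 and from 77352984 to 77353508, 193 kb away, scored 119 and 218, with ranks 271 and 135. A peak from 77138912 to 77139329 scored 140, with rank 228, and one from 77055106 to 77055363 scored 108, with rank 307. All 5 passed a score of 100, while the remaining region of 16 h only, within 10 kb of the position, scored 68.5. Of the whole 16 h list, 18.9% passed 100 (17.2 to 20.8, 95% Wilson interval). That share is not a like one for peaks of 16 h only, since 224 of the 350 late peaks that passed overlapped an early peak.

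In merged terms, with touching peaks of the 4 lists joined, Hs578T occupied 13 regions of the ZNF503 window. Of these, 7 were listed at both times, 6 at 16 h only and none at 1.5 h only. Over all 2792 regions with a Hs578T peak, 12.5% (11.4 to 13.8) were listed at both times and 52.4% (50.5 to 54.2) at 16 h only. All 8 of the 1.5 h peaks overlapped a 16 h peak by at least 1 bp, against 27.8% of the whole list (25.5 to 30.3), and 8 of the 14 peaks at 16 h overlapped a 1.5 h peak, against 20.1% (18.3 to 22.0). Of all peaks that reached a score of 100, 89.1% of the early list and 64% of the late list recurred, and in the window 7 of 7 and 5 of 10 did. The window was chosen for its peaks, so nothing is read from these shares. Intervals here cover counting error only.

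BT549 touched the ZNF503 run at its edge nearest the gene and had a site of its own farther out. At 1.5 h, peaks from 77161252 to 77161453 and from 77162404 to 77162631 overlapped Hs578T peaks, with scores of 67.0 and 53.3 and ranks 7299 and 8957 of 9225. These are the 2 regions of the window with peaks of both lines, against 11.1% of all Hs578T regions (10.0 to 12.4). By time, 2 of the 8 Hs578T peaks at 1.5 h overlapped a BT549 peak, against 11.2% of the list (9.65 to 13.0). None of the 14 at 16 h did, against 10.3% (8.97 to 11.7). From the side of BT549, 2 of its 4 peaks at 1.5 h met a Hs578T peak, where 1.59% of the list did (1.36 to 1.87), and its single peak at 16 h met none, where 2.17% did (1.88 to 2.51).

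The BT549 site farther out, from 77228852 to 77229304, scored 231 at 1.5 h, with rank 922, and 98.1 at 16 h, with rank 2807 of 8153. It was the only ZNF503 peak of BT549 at 16 h. Thus 1 of the 4 early BT549 peaks recurred late, where 41.4% of the list did (40.4 to 42.4), and the single late peak had an early one, as 46.5% of its list had (45.4 to 47.6). A neighbour from 77228345 to 77228666 was listed at 1.5 h only, with a score of 110 and rank 3452. This place lies 69.1 kb from the gene position, and the nearest Hs578T peak of either time was 38.7 kb away, so the leading BT549 site and the Hs578T sites of the window are separate places.

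At ZNF703 in Hs578T, peaks were strung out over much of the window on the side of lower coordinates rather than gathered at the gene. Of the 15 peaks at 1.5 h, 11 lay below the gene position, and of the 23 at 16 h, 20 did. The window runs from 37000000 to 37700000, so most of its length also lies below the position near 37553 kb. A preference of the peaks for a side was not tested. ZNF703 is transcribed towards higher coordinates, so the lower side is upstream of the gene. ZNF503 lies on the minus strand, so its upstream side is that of higher coordinates. That side held 7 of the 8 Hs578T peaks of the ZNF503 window at 1.5 h and 11 of the 14 at 16 h. It also holds most of that window, which runs from 77000000 to 77600000 with the gene near 77160 kb. A shared leaning to the upstream side is therefore not read from these counts. The Hs578T regions of the ZNF703 window spanned 615 kb, from 37005342 to 37620030.

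The leading ZNF703 site lay 148 kb below the gene position, from 37404377 to 37405188. It scored 313 at 1.5 h and 639 at 16 h, and its rank was 16 in both lists. Next came a site 8.1 kb above the position, from 37560857 to 37561316, with a score of 239 and rank 35 at 1.5 h and 524 and rank 22 at 16 h. These 2 places, 1 distant and 1 close, led the window at both times.

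Another 4 sites were in the first 100 ranks of at least 1 Hs578T list. The site from 37160014 to 37160904, 393 kb below the position, was listed as 2 peaks at 1.5 h, the better with a score of 144 and rank 88, and as a single peak of 891 bp at 16 h, with a score of 440 and rank 35. The site from 37336765 to 37337352, 216 kb below, scored 210 with rank 46 and 294 with rank 78. The site from 37217056 to 37217555, 336 kb below, scored 114 with rank 135 and 347 with rank 58.

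The site from 37494967 to 37495502, 57.8 kb below the position, stood out for its place within the window. At 1.5 h it was 2 narrow peaks of 117 and 124 bp with scores of 77.8 and 51.8, ranks 274 and 1268. At 16 h it was a single peak of 536 bp with a score of 326 and rank 65. Of the 9 sites listed at both times it had the lowest score at 1.5 h, and only 4 of them scored higher at 16 h.

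The other 3 ZNF703 sites of both times were outside the first 100 ranks of each Hs578T list. The site from 37186968 to 37187546 scored 126 at 1.5 h and 195 at 16 h. That from 37217961 to 37218357 scored 80.7 and 232, and that from 37310217 to 37310710 scored 84.0 and 193. In all, 9 of the 27 Hs578T regions were listed at both times, 14 at 16 h only and 4 at 1.5 h only. Over all 2792 regions with a Hs578T peak, 12.5% were listed at both times and 52.4% at 16 h only. The count at 16 h only is thus near the share of the whole lists.

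The ZNF703 regions listed at a single time all scored below 100. The 14 at 16 h only had best scores of 51.3 to 87.3, and 9 of the 14 lay above the whole list's median of 61.0. In the whole list 18.9% reached 100, but that share is not a like one, since it includes recurring peaks. Of the 350 late peaks that reached 100, 224 overlapped an early peak, while 371 of all 1849 late peaks did. By place, 13 of the 14 lay more than 10 kb from the gene position. The 4 at 1.5 h only, from 37549109 to 37560134, scored 51.7 to 66.0, against a median of 60.7 for their list, and all lay within 10 kb of it. At 1.5 h, 11 of the 15 peaks were found again at 16 h, and 9 of the 23 late peaks had an early one, read against the 27.8% and 20.1% given above. All 6 peaks of 1.5 h and all 9 of 16 h with a score of 100 or more recurred. Over the whole lists, 89.1% and 64% of the peaks of that score did.

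**Figure D3:**
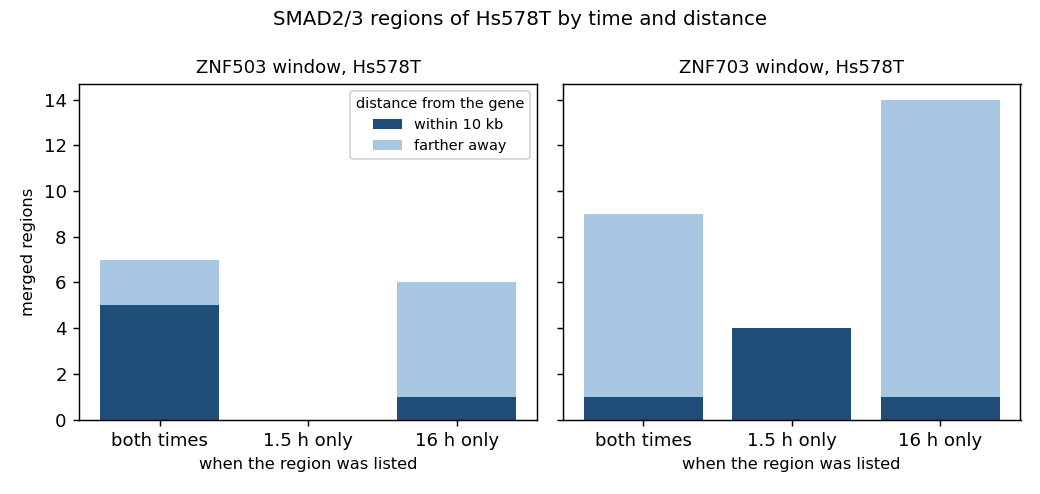
Number of merged Hs578T regions of each window (y axis) by when they were listed (x axis), split by whether the region's midpoint lay within 10 kb of the gene position. ZNF503 has 5 near regions at both times, while ZNF703 has 1 there and 8 farther away; the 14 ZNF703 regions of 16 h only include 13 distant ones.

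Around ZNF703 the Hs578T peaks formed an island on their chromosome. In the 1.5 h list the nearest peaks outside the window ended at 27805986 on one side and began at 53499413 on the other, so the 15 peaks of the window were the only ones in a stretch of 25.7 Mb. They made up 27.8% of the 54 peaks that the list held on chromosome 8. In the 16 h list the stretch without other peaks ran from 27806211 to 41491651, or 13.7 Mb, and the window held 23 of the 78 peaks on the chromosome, or 29.5%.

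The BT549 lists, with 9225 and 8153 peaks in all against 1373 and 1849 in Hs578T, did not share these gaps. In the 25.7 Mb stretch they held 135 peaks outside the window at 1.5 h and 114 at 16 h. The Hs578T list of 16 h held 7 there. In the 13.7 Mb stretch of the 16 h list, BT549 held 83 peaks outside the window at 1.5 h and 71 at 16 h. In the 700 kb on either side of the window, Hs578T had no peak at either time, while BT549 had 1 and 5 at 1.5 h and 2 and 7 at 16 h. Empty flanks are common, since 78.2% of the other windows of this length held no Hs578T peak at 1.5 h and 74.1% at 16 h. The BT549 mean over these windows was 2.11 at 1.5 h and 1.87 at 16 h. ZNF503 was less isolated. The stretch free of other Hs578T peaks around its window was 1.22 Mb at 1.5 h and 0.724 Mb at 16 h, and the window held 8.70% and 11.4% of the Hs578T peaks on chromosome 10.

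In BT549 the ZNF703 window held 3 peaks in all, and none overlapped a Hs578T peak or a BT549 peak of the other time. At 1.5 h a peak of 104 bp from 37541205 to 37541308 scored 188, with rank 1449, and lay 7.80 kb from the nearest Hs578T peak. At 16 h, peaks from 37035762 to 37035996 and from 37090473 to 37090619 scored 56.0 and 77.2, with ranks 7200 and 4027. With 3 peaks, the absence of recurrence says little beside the 41.4% and 46.5% of the whole lists. The absence of overlap with Hs578T says as little. Over the whole BT549 lists, 1.59% of the peaks at 1.5 h and 2.17% at 16 h overlapped a Hs578T peak of the same time.

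**Figure D4:**
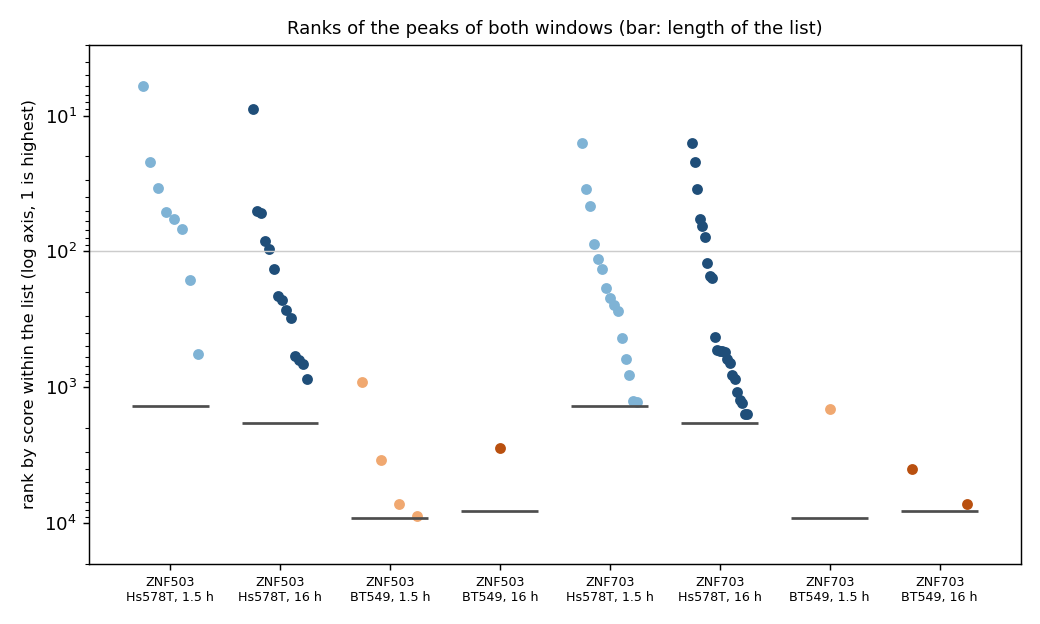
Rank by score of every peak of both windows within its own list (log axis, rank 1 at the top), 1 column per gene and library; each point is a peak, the bars mark list lengths and the grey line rank 100. Hs578T peaks reach ranks 6 and 9 at ZNF503 and 16 and 16 at ZNF703, while the best BT549 ranks are 922 and 1449 at 1.5 h.

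The paralogs differed in where their binding lay. In Hs578T at 1.5 h each gene had 5 peaks within 10 kb of its position, but at ZNF503 all 5 scored 100 or more and at ZNF703 only 1 did. Over the whole list, 12.0% of the peaks reached that score (10.4 to 13.8). At 16 h ZNF503 had 6 peaks within 10 kb, 3 of them at 100 or more, and ZNF703 had 2, with 1 at 100 or more. Of the whole 16 h list, 18.9% reached that score. More than 10 kb away, ZNF503 had 3 peaks at 1.5 h and 8 at 16 h, and ZNF703 had 10 and 21. Of these distant peaks, 2 and 7 reached a score of 100 at ZNF503, and 5 and 8 at ZNF703. At 16 h most peaks of that score were thus distant at both genes. The distance of 10 kb was chosen after the positions were seen.

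The length covered by peaks was split in the same way. Within 10 kb of ZNF503, peaks covered 2496 bp at 1.5 h and 2686 bp at 16 h, and beyond 10 kb they covered 936 bp and 2969 bp. At ZNF703 the near peaks covered 1077 bp and 563 bp, and the distant ones 3039 bp and 7493 bp. At both genes the distant sum was thus the larger at 16 h and held most of the difference between times. Sums of this kind move with how much was called in each list, and the Hs578T list covered 228.7 kb at 1.5 h and 376.1 kb at 16 h in all.

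The shape of recurring peaks differed between the genes. At ZNF703 all 11 overlapping pairs of a 1.5 h and a 16 h peak of Hs578T had the wider peak at 16 h. At ZNF503 4 of 9 pairs did, and over the whole lists 323 of 403 pairs, or 80.1% (76.0 to 83.8). Pairs were taken by overlap, so their midpoints must lie near each other. The midpoints of a pair lay a median of 87.5 bp apart at ZNF503 and 85.0 bp at ZNF703, both farther than the 58.5 bp over all pairs. Pairs that share a peak are counted separately, and the difference between the genes was not tested.

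The peaks of both windows were also wide for Hs578T. At ZNF503 all 8 peaks at 1.5 h and all 14 at 16 h were 150 bp or wider, against 35.8% (33.3 to 38.3) and 52.4% (50.1 to 54.7) of the lists. At ZNF703 it was 12 of 15 and 20 of 23. Median widths were 428 bp and 337 bp at ZNF503 and 227 bp and 284 bp at ZNF703, where the lists had 141 bp and 151 bp.

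Few other places of the genome were as densely bound in Hs578T. Windows of 600 kb were placed at each peak, and of those that do not overlap each other or the ZNF503 window, 8 held at least 8 peaks at 1.5 h and 5 held at least 14 at 16 h. With 700 kb, 3 held at least the 15 peaks of ZNF703 at 1.5 h and 1 held at least its 23 at 16 h. The densest held 23 at 1.5 h and 25 at 16 h for both lengths. These windows are placed to start at a peak, while those of the genes have fixed ends. In BT549, 928 and 2263 windows held at least as many peaks as ZNF503 at 1.5 h and 16 h, and 1945 and 1545 held at least as many as ZNF703.

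To find places with a like pattern, the genome was tiled with windows of the same length and the differences in peak count over the 4 libraries were summed without sign. The tiles closest to ZNF503 were on chromosome X from 39800001 to 40400000, with 8 and 11 peaks in the early and late Hs578T lists and 6 and 2 in those of BT549, on chromosome 2 from 176600001 to 177200000, with 10, 13, 0 and 0, and on chromosome 8 from 36800001 to 37400000, with 7, 12, 1 and 3. The last of these overlaps the ZNF703 window. For ZNF703 the closest were on chromosome 17 from 46100001 to 46800000, with 14, 21, 8 and 6, on chromosome 7 from 26500001 to 27200000, with 13, 15, 2 and 5, and on chromosome 10 from 76900001 to 77600000, with 8, 15, 5 and 2, which covers the ZNF503 window. The chromosome 8 tile ends below the ZNF703 position, so it holds part of the distant binding but none of the peaks near the gene. A likeness in peak counts over 4 libraries says nothing of shared control.

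No Hs578T peak lay within 10 kb outside either window. At ZNF503 the outermost peaks inside scored 176 and 101 at 1.5 h and 377 and 71.5 at 16 h. The nearest peaks outside lay 409 kb and 211 kb from the ends at 1.5 h, with scores of 75.4 and 83.1, and 13.5 kb and 111 kb from them at 16 h, with scores of 50.5 and 51.2. At ZNF703 the outermost peaks inside scored 93.5 and 239 at 1.5 h and 87.3 and 70.4 at 16 h.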

How the data were processed

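The submitters' processing notes name the hg19 build and the tools MACS 1.4.2, Bowtie 1.1.0 and Picard. Settings and the part of the input were not given in the sources used. The authors deposited a peak list per library, not pooled. The deposited score is the peak caller's own value per peak, 50.01 at the lowest, and serves here to rank and filter peaks within a list. Depth is unknown, and no test or p-value is given, since each line and time has 1 library.

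Members were found by midpoint. Overlap means at least 1 bp shared, and touching peaks of the 4 lists were merged into regions. Named were regions with peaks at both times of a line, of both lines or in the first 100 ranks of a list, otherwise the best peak of a library. Further members and the distance of 10 kb were chosen after values were seen. The members and lists were chosen with earlier results of these data known. Overlap and merging were checked on simulated lists. Alternatives were a score of 100, a width of 150 bp, joining or matching within 500 bp, 100 kb around the gene, any overlap with the window, 50% overlap, equal list lengths and ranks by width. Python 3.11.15, numpy 2.4.6, pandas 2.3.3, scipy 1.17.1 and matplotlib 3.10.9 were used.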

Additional observations from a re-analysis of the deposited data

Results flagged for a closer look

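In the ZNF503 window the lines went in opposite directions between the times. Hs578T had 1.75 times as many peaks at 16 h as at 1.5 h and BT549 0.25 times as many, and the length covered by peaks was 1.65 times and 0.189 times as great. With a single library for each line and time this difference was not tested, and the BT549 values rest on 4 peaks and 1. The whole lists stood at 1.35 and 0.884 times in peak number and at 1.64 and 0.876 times in covered length, so the lines also differ in direction genome-wide and the Hs578T covered length moved as its whole list did. The part of list length in the ZNF503 values was not tested.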

How the results depend on the processing

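Of 111 recomputed values, 68 stayed within 1.5 times of the reported count or kept the reported rank; the other 43 follow, and the cause was not tested. Counts are given for Hs578T at 1.5 h and 16 h and then BT549 at 1.5 h and 16 h. With scores of 100 or more, the ZNF503 window held 7, 10, 2 and 0 peaks and the ZNF703 window 6, 9, 1 and 0. With peaks of 150 bp or more, ZNF703 held 0 and 1 in BT549. With peaks within 500 bp joined, Hs578T at 16 h had 8 at ZNF503 and 15 at ZNF703. Within 100 kb of the gene position, ZNF503 held 5, 7, 4 and 1 and ZNF703 7, 9, 1 and 0. With 1373 peaks taken from each list by score, BT549 had 1 and 0 at ZNF503 and 0 and 0 at ZNF703.

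Peaks found at both times of Hs578T numbered 5 and 5 at ZNF503 and 6 and 6 at ZNF703 when both lists were limited to a score of 100. With 50% of both peaks shared they numbered 5 and 5 at ZNF703, and within 500 bp 14 of the 16 h peaks there. The BT549 1.5 h peak of ZNF503 found again at 16 h became 2 within 500 bp, and that of each time became 0 with scores of 100 or more or equal list lengths. The 2 ZNF503 regions of both lines became 1 when merged within 500 bp, 0 with scores of 100 or more and 0 with equal list lengths.

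Ranked by width, the best peaks stood at 5, 4, 1083 and 4626 for ZNF503 and at 8, 5, 8725 and 4280 for ZNF703. Among peaks of 150 bp or more, the best BT549 ranks were 887 and 2176 at ZNF503 and 6013 at ZNF703 at 16 h, where the 1.5 h list gave no value. No paired analysis was possible because each line and time has 1 library and no test was made. In every alternative computed, Hs578T had more peaks than BT549 in each window at the same time.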
